A study of Mus musculus with 10 samples.

Results

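The genes described here are 10 Krüppel-like factor genes, *Klf2*, *Klf3*, *Klf4*, *Klf5*, *Klf6*, *Klf7*, *Klf10*, *Klf12*, *Klf13* and *Klf15*, and what was measured is the accessibility of the chromatin around them in the outer layer of the embryonic mouse heart. An accessible region belonged to a gene when its summit, the position with the most fragments, lay inside the gene or within 50 kb of it on the mm10 genome. It was a promoter region when that summit lay within 1 kb of the 5′ end of the gene. By this rule 224 of the 184764 regions found in the genome belonged to the 10 genes, and 1358 of the 1071660 summits in the 9 peak lists lay in their windows.

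Bulk ATAC-seq, in which a transposase cuts open chromatin, was run on cells sorted from pooled littermate hearts. The epicardium, the mesothelial sheet that covers the heart, was taken at E11.5 (n = 3) and E17.5 (n = 3) as CD31-tdTomato+PDPN+ cells. Epicardium-derived cells (EPDCs), which have left that sheet, were taken as CD31-tdTomato+PDPN- cells at E12.5 (1 library) and E13.5 (2 libraries), and 1 of the E13.5 lists combined technical replicates of the same biological sample. Every embryo was Rosa26tdTomato;Wt1CreERT2/+ on a C57BL/6J background and had been exposed to tamoxifen at E9.5 through its mother. The label therefore marked cells in which Cre recombinase was made from the *Wt1* locus and their descendants, and the PDPN gate separated the populations. Per the labels, each sample pooled 6 hearts at E11.5, 4 at E17.5 and between 4 and 13 at E13.5. The methods text narrows the last range, and no number was given for the E12.5 library. No stage was sampled in both populations, and the EPDC lists alone kept summits outside the numbered and sex chromosomes, so that in EPDC comparisons the population, the stage and the making of the lists cannot be told apart. The 3 comparisons share libraries and are not independent of each other. Epicardium at E13.5 was not analysed here.

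Krüppel-like factors are transcription factors with C2H2 zinc fingers at their carboxyl end, which bind CACCC boxes and GC boxes. Their amino-terminal parts differ, and recruit either histone acetyltransferases or corepressors such as CtBP and Sin3a. Members of the family are known for the control of quiescence, proliferation, differentiation and metabolism in epithelia, blood vessels and muscle. The genes are ordered here by the cofactors their proteins are known to bind.

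Accessibility was read in 3 ways. The rank percentile of a region is the share of all summits of the same library whose p-value was no stronger than that of its strongest summit, and 0 means that no peak was called, not that the chromatin was closed. The number of fragments at the summit, recovered from the lists, was quantile-normalized over the libraries of 2 groups and compared on the log2 scale with limma, over regions called in all 6 libraries. A difference was called at a Benjamini-Hochberg adjusted p of at most 0.05 over all regions of the genome so tested. A region called in all 3 libraries of a group and none of another is described as found in the first only, without a test. Each library gave 94909 to 142743 summits, with a genome background of 2.07 to 4.26 fragments per position except in EPDC E13.5 sample 2, where it was 10.9. These values limit which weak regions could be called.

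The promoters of cell type marker genes were ranked in the same way. In the epicardial list of 10 genes the median percentile was 90.9 to 94.2 at E11.5, 89.5 to 91.7 at E17.5 and 74.8 to 84.0 in EPDCs. In the fibroblast and mesenchyme list of 6 genes it was 37.2 to 57.1, 52.1 to 63.1 and 72.6 to 84.1, and in the mural list of 5 genes, whose promoters were called in every library, it was 83.9 to 87.1, 67.8 to 77.9 and 85.3 to 87.6. Of the mural promoters *Rgs5* (-1.59, adjusted p = 1.94e-08), *Myh11* (-0.95, adjusted p = 1.48e-08) and *Acta2* (-0.66, adjusted p = 8.16e-05) were lower at E17.5 than at E11.5. Those of *Pdgfrb* (0.09, adjusted p = 0.56) and *Cspg4* (0.03, adjusted p = 0.879) did not pass the test. *Klf2* and *Klf4* are also known as endothelial genes. In the endothelial list of 6 genes the promoters of *Pecam1*, *Cdh5*, *Emcn* and *Tie1* were uncalled in all 9 libraries and 2, *Kdr* and *Tek*, were called in each. *Kdr* ranked from 88.1 to 93.2 and *Tek* from 78.9 to 85.8. The *Kdr* promoter was higher in EPDCs than at E11.5 (0.445, adjusted p = 0.00357) and than at E17.5 (0.35, adjusted p = 0.00962), and that of *Tek* passed no test. Of the blood list 1 to 3 of 6 promoters were called, with *Ptprc*, *Gata1* and *Csf1r* at 0. The *Cd68* promoter was called in all epicardial libraries and was higher at E17.5 than at E11.5 (0.81, adjusted p = 1.71e-06), that of *Hbb-bs* was called at E17.5 only (27.9, 58.2 and 31.4), and that of *Lyz2* ranked 31.1, 53.5 and 64.9 in EPDCs and 0 to 19.2 in epicardium. Of the cardiomyocyte list 3 to 5 of 6 were called, with *Myh6* at 0. The median percentile was 27.8 to 40.1 at E11.5, 18.4 to 45.2 at E17.5 and 8.91 to 22.2 in EPDCs. Values were lower at E17.5 than at E11.5 for *Tnnt2* (-1.065, adjusted p = 2.37e-08), *Actn2* (-1.005, adjusted p = 1.09e-08) and *Nkx2-5* (-0.58, adjusted p = 0.0391). The untested *Myh7* promoter went the other way, ranking no higher than 26.2 in any E11.5 library but 31.6 to 59.8 by E17.5. It was uncalled in EPDCs. Against E17.5, EPDCs were higher for *Tnnt2* (0.535, adjusted p = 0.0108) and *Actn2* (0.878, adjusted p = 7.66e-05), while *Nkx2-5* did not pass (0.215, adjusted p = 0.522). Against E11.5, EPDCs were lower for *Tnnt2* (-0.483, adjusted p = 0.00482). The part that other cell types had in the results was not tested.

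Several distal regions carried the main differences, and their sequences are shown so that the motifs in them can be seen. Their central 121 bases are shown on the plus strand of mm10 (GRCm38.p6), read from the RefSeq genome and centred on the summit. Capitals mark matches, on either strand, to the CACCC box (CCNCNCCC), the GC box (GGGCGG), the TEAD motif (GGAATG), the AP-1 motif (TGANTCA) and the GATA motif (AGATAA). The CACCC and GC boxes can share letters. The first sequence is the region 23.2 kb upstream of *Klf2*, at chr8:72295797-72295917. It was more accessible at E17.5 and in EPDCs than at E11.5 and holds a match to the CACCC box pattern. The second, at chr8:72271892-72272012, and the third, at chr13:5841534-5841654, were found at E17.5 only and also hold such a match. The letters are GGGAGAGG in the first, CCACACCC in the second and CCACTCCC in the third. Only the match in the second contains CACCC itself. The fourth, at chr13:5892854-5892974, the fifth, at chr15:38324023-38324143, and the sixth, at chr7:63873969-63874089, were weak or uncalled in EPDCs and hold TEAD matches. The next 3, at chr15:38342928-38343048, chr5:64840190-64840310 and chr6:90471270-90471390, were strong in EPDCs, and the first of these holds a TEAD match too. The last, at chr14:100013629-100013749, was strong at E11.5. In the central 121 bases, TEAD matches lay in 15.6% of the regions of the 10 genes, against 13.7% of all regions. CACCC boxes lay in 22.3%, against 17.3%.
*Klf2* 23.2 kb upstream: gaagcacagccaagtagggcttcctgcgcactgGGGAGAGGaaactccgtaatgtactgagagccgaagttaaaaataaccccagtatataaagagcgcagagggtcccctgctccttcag
*Klf2* 47.1 kb upstream: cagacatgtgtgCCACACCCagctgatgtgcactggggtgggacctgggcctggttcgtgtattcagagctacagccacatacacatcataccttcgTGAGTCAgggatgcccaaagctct
*Klf6* 19.9 kb upstream: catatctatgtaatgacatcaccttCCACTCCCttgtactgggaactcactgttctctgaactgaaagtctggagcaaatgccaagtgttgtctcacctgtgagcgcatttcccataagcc
*Klf6* 31.4 kb downstream: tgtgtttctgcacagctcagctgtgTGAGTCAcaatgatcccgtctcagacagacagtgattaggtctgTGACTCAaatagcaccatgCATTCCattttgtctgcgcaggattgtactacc
*Klf10* 23.4 kb upstream: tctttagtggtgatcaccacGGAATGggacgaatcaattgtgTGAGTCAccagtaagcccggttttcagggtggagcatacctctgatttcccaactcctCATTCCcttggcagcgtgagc
*Klf13* 64.9 kb downstream: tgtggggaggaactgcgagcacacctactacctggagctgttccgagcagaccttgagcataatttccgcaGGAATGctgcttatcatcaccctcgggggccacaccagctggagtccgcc
*Klf10* 42.3 kb upstream: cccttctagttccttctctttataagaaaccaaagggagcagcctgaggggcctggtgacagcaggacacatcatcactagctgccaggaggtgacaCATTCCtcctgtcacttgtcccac
*Klf3* 36.9 kb downstream: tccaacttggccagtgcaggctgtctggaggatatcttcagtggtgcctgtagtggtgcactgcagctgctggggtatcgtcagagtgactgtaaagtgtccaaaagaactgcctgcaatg
*Klf15* 8.8 kb downstream: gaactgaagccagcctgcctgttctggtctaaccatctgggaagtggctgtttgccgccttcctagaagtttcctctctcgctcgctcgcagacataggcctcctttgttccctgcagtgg
*Klf12* 271.0 kb downstream: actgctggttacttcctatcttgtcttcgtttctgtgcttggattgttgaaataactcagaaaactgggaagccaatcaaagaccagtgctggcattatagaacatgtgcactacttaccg

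Upstream and downstream are measured from the 5′ end of the gene along its own strand, so that a downstream region may lie inside the gene. Of the 224 regions, 10 lay in exons, 82 in introns of some gene and 132 between genes. For 78.1% of them the nearest start of a coding gene was that of the Krüppel-like factor gene itself. Of the regions, 118 lay inside the Krüppel-like factor gene or within 10 kb of either end of it. The regions numbered 42 for *Klf12*, 30 for *Klf10*, 27 for *Klf13*, 24 for *Klf3*, 22 for *Klf6*, 20 for *Klf7*, 18 for *Klf2*, 17 each for *Klf4* and *Klf15* and 7 for *Klf5*. All 9 libraries shared 63 regions (28.1%), against 24.7% of all regions in the genome, and 31 (13.8%) were called in a single library, against 16.6% of all. At the edge of the 50 kb window, the last region inside lay 49.02 kb from *Klf4* and ranked from 0 to 66.4, and the first outside lay 50.9 kb from *Klf3* and ranked from 0 to 19.1.

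All 10 genes had a promoter region called in all 9 libraries, and the strongest of each gene ranked high. Mean percentiles over the 9 libraries were 99.1 for *Klf7*, 99.0 for *Klf13*, 98.8 for *Klf2*, 97.9 for *Klf5*, 97.6 for *Klf3*, 97.1 for *Klf6* and 96.3 for *Klf10*. The promoters of *Klf4* (90.7), *Klf15* (90.1) and *Klf12* (83.9) were lower. Each gene overlapped with its neighbour in this order when the values of the 9 libraries were compared. In total 17 promoter regions were found, or 31 when every annotated start was used.

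**Figure D1:**
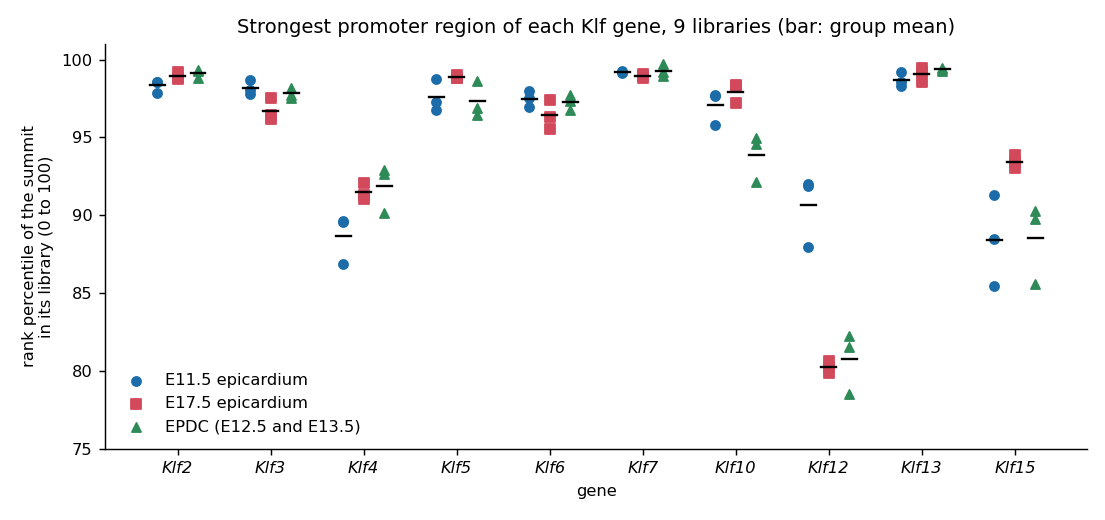
Rank percentile (y axis, from 75 to 100) of the strongest promoter region of each of the 10 genes (x axis), with a point for each of the 9 libraries coloured by group and a bar for each group mean. The *Klf12* points at E11.5, 88.0 to 92.0, sit above those at E17.5 and in EPDCs, and the *Klf10* points in EPDCs, 92.1 to 94.96, sit below those of the epicardium.

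The *Klf12* promoter ranked 88.0, 92.0 and 91.9 at E11.5, 80.3, 79.8 and 80.7 at E17.5 and 82.3, 78.5 and 81.5 in EPDCs, so that E11.5 did not overlap with the other groups. Its normalized fragments numbered 172, 146 and 166 at E17.5 against 214, 253 and 248 at E11.5, a log2 difference of -0.56 ± 0.105 (SE; adjusted p = 2.24e-05). The *Klf15* promoter moved the other way, from 91.3, 88.5 and 85.4 to 93.0, 93.4 and 93.9. Its fragments numbered 256, 233 and 260 at E17.5 and 199, 160 and 139 at E11.5, which gave 0.60 ± 0.11 (adjusted p = 1.5e-05).

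The *Klf2* promoter rose by E17.5 as well, with 484, 433 and 455 fragments against 385, 370 and 328 (0.34 ± 0.075, adjusted p = 0.00018), and so did those of *Klf4* (0.35, adjusted p = 0.00193) and *Klf5* (0.30, adjusted p = 0.000752). In EPDCs the *Klf10* promoter had 493, 438 and 483 fragments against 693, 723 and 690 at E17.5, a difference of -0.58 ± 0.066 (adjusted p = 3.23e-06). Against E11.5 it was -0.44 ± 0.082 (adjusted p = 0.000183). The *Klf13* and *Klf6* promoters passed the test in none of the 3 comparisons, with limma differences of -0.05 to 0.13 for *Klf13* and 0.00 to 0.03 for *Klf6*. With median scaling both were called higher than at E11.5, *Klf13* by 0.54 at E17.5 (adjusted p = 0.000199) and 0.61 in EPDCs (adjusted p = 0.000697), and *Klf6* by 0.44 (adjusted p = 0.00122) and 0.42 (adjusted p = 0.00416). The EPDC value of *Klf13* was also called on the deposited fold enrichment (0.44, adjusted p = 0.0298).

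Promoter differences depended on the scale. Under median scaling in place of quantile normalization the values of E17.5 minus E11.5 were higher for every promoter, for example 0.76 for *Klf2*. The *Klf12* promoter lost its call, at -0.24 (adjusted p = 0.0646), and at -0.26 (adjusted p = 0.0648) in EPDCs against E11.5. The *Klf3* promoter turned from -0.20 to 0.20, and the *Klf10* value in EPDCs against E11.5 turned from -0.44 to 0.01. On the deposited fold enrichment, which divides by the local background, none of these promoter differences between E17.5 and E11.5 was called, and *Klf2* gave -0.17, *Klf12* -0.30 and *Klf15* 0.25. The calls for *Klf10* in EPDCs were lost on that scale too, with 0.07 against E11.5 and -0.25 against E17.5.

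Promoter sequences were taken from RefSeq (GRCm38.p6) for the 8 genes matched there, that is without *Klf5* and *Klf10*, and those of *Klf2* and *Klf15*, whose promoters rose by E17.5, are shown. Each is the first 200 bases of the entry, upstream of the annotated start, at chr8:72318812-72319011 for *Klf2* and chr6:90462326-90462525 for *Klf15*, both on the plus strand. Capitals mark matches to the same motifs, here CACCC and GC boxes.
*Klf2* promoter: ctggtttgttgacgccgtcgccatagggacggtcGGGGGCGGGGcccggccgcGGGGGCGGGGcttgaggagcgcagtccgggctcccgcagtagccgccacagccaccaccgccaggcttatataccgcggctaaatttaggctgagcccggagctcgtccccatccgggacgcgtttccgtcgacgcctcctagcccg
*Klf15* promoter: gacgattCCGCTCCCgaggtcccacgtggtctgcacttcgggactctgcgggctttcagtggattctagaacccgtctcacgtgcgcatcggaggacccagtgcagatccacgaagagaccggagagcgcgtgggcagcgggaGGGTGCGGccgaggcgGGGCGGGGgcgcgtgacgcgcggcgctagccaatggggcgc
In the whole 300-base entries, *Klf2* had 4 CACCC-box and 2 GC-box matches and *Klf15* 3 and 1. The other entries held 10 and 6 for *Klf3*, 9 and 4 for *Klf4*, 8 and 1 for *Klf7*, 5 and 3 for *Klf13*, 3 and 1 for *Klf6* and 2 and 0 for *Klf12*. The entries of *Klf7* and *Klf12* begin inside the gene as GENCODE annotates it. A CACCC box was found in 49.5% and a GC box in 35.7% of all 32851 RefSeq promoters. Among the 17 promoter regions of the peak lists, 16 held a CACCC box (94.1%, against 77.4% of all promoter regions) and 15 a GC box (88.2%, against 66.4%). Their median GC content was 68.1%, against 61.5%.

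Between E11.5 and E17.5 the question was how the epicardial chromatin around these genes changed as the heart matured. Of 82 regions tested, 28 were more accessible at E17.5 (34.1%, against 26.3% of all regions tested in the genome) and 14 were less accessible (17.1%, against 25.5%). The median log2 difference was 0.137, against 0.014 for all regions. Median scaling gave 37 higher (45.1%, against 37.43%) and 10 lower (12.2%, against 24.12%), and moved the medians to 0.293, against 0.131 for all regions. The deposited fold enrichment gave 13 higher (15.9%, against 17.48%) and 11 lower (13.4%, against 16.91%), with a median of -0.002, against 0.005 for all, so that the share of higher regions was not above that of all regions on that scale. Of 193 regions called in either group, 5 were found at E17.5 only (2.59%, against 5.06% of all) and 14 at E11.5 only (7.25%, against 12.0%). The count of 5 became 15 without E17.5 replicate 1, and 8 without E11.5 replicate 2 or 3.

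In EPDCs against E11.5 epicardium, 20 of 78 regions were higher (25.6%, against 21.6%) and 24 lower (30.8%, against 22.3%), with a median of 0.017, against -0.018. Median scaling gave 29 higher (37.2%, against 30.26%) and 21 lower (26.9%, against 21.14%). Of 201 regions, 9 were found in EPDCs only (4.48%, against 4.73%) and 7 at E11.5 only (3.48%, against 8.22%). In EPDCs against E17.5 epicardium, 15 of 66 were higher (22.7%, against 27.2%) and 25 lower (37.9%, against 29.1%), with a median of -0.075, against -0.036. Median scaling gave 10 higher (15.2%, against 25.02%) and 24 lower (36.4%, against 30.12%). Of 207 regions, 17 were found in EPDCs only (8.21%, against 9.7%) and 12 at E17.5 only (5.8%, against 7.93%). Leaving out the E12.5 library raised the EPDC-only counts from 9 to 24 and from 17 to 30. Leaving out E17.5 replicate 1 raised the E17.5-only count from 12 to 21, and without E17.5 replicate 2 the regions higher in EPDCs numbered 9 in place of 15. The E11.5-only count of 7 became 12 without E11.5 replicate 1 and 11 without the E12.5 library or EPDC E13.5 sample 2. The deposited fold enrichment gave 15 higher (19.2%, against 15.96%) and 14 lower (17.9%, against 16.0%) than at E11.5, with a median of 0.073, against 0.032. Against E17.5 it gave 11 higher (16.7%, against 18.56%) and 11 lower (16.7%, against 18.09%), and the median turned to 0.097, against 0.016.

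**Figure D2:**
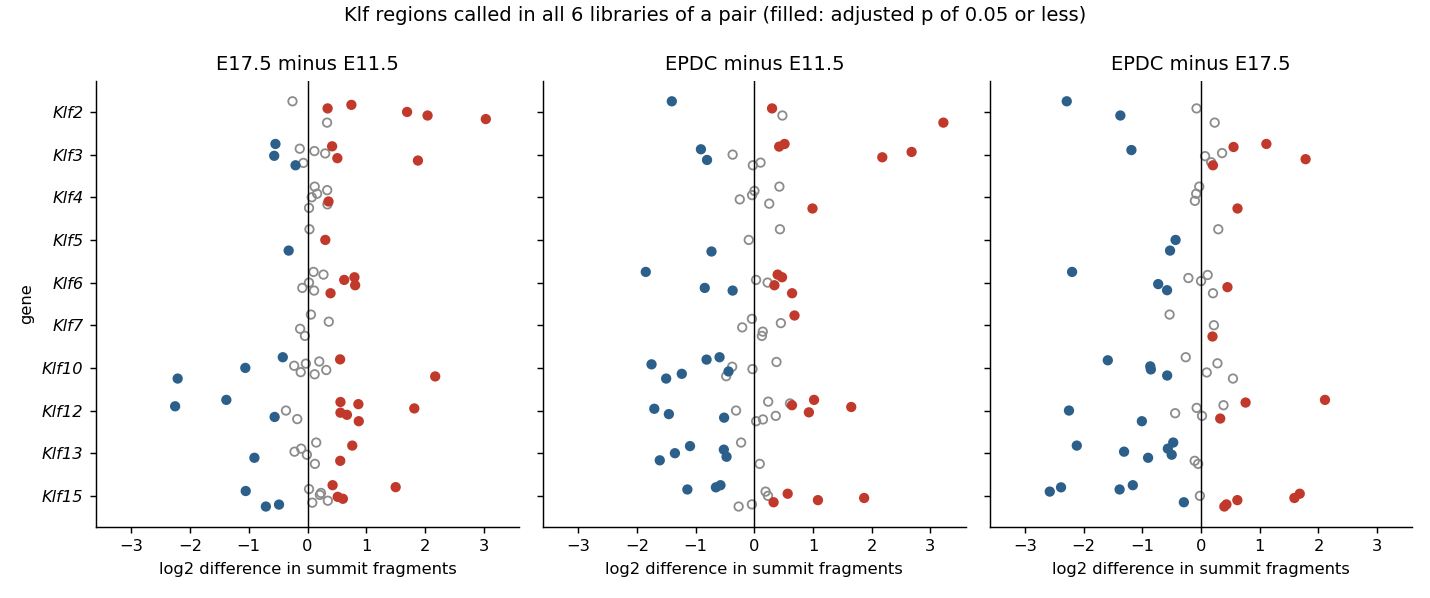
Log2 difference in normalized fragments (x axis) of each tested region, by gene (y axis), in the 3 comparisons. Filled points passed limma's test at an adjusted p of 0.05, and the filled *Klf13* and *Klf10* points of both EPDC comparisons lie below 0.

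The first class is *Klf2*, *Klf4*, *Klf5*, *Klf6* and *Klf7*, whose proteins are known to recruit acetyltransferases such as p300. Of their 30 regions tested between E17.5 and E11.5, 11 were higher and 1 was lower, where 26.3% and 25.5% of all regions had these calls. The same count was 3 and 3 on the deposited fold enrichment, and 15 and 0 with median scaling. The 1 lower region became 3 without E17.5 replicate 1 and 4 with regions called in at least 2 libraries of each group. In EPDCs, 8 were higher and 5 lower of 28 against E11.5 (21.6% and 22.3% of all regions), and 3 were higher and 7 lower of 22 against E17.5 (27.2% and 29.1% of all). The last 2 counts were 5 higher and 3 lower on the deposited fold enrichment, so that their order turned, and 5 and 12 with regions called in at least 2 libraries of each group. The count of 8 became 5 without E11.5 replicate 3 or EPDC E13.5 sample 1, the 3 became 1 without E17.5 replicate 2 or 3 and 5 without E17.5 replicate 1, and the 7 became 11 without the E12.5 library.

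*Klf2* (chr8:72319033-72321656, plus strand) encodes a factor known for keeping endothelium quiescent under blood flow. Among its 7 regions tested between the stages, 5 were higher at E17.5 and 0 lower by limma, also at an unadjusted p under 0.05 (26.3% and 25.5% of all regions had these calls), or 3 higher and 1 lower on the deposited fold enrichment. The largest change in the *Klf2* window lay 23.2 kb upstream, between genes, with the predicted gene *Gm10282* as the nearest coding start, in a region whose sequence is shown above. It ranked 52.0, 59.3 and 70.0 at E11.5, 98.0, 97.6 and 97.3 at E17.5 and 94.2, 99.2 and 99.3 in EPDCs. Its fragments numbered 324, 274 and 272 at E17.5 against 30.8, 32.4 and 44.0 at E11.5, 8.2-fold higher (log2 3.04 ± 0.144, adjusted p = 1.15e-19). In EPDCs they numbered 268, 505 and 485 against 37.8, 39.9 and 53.6 at E11.5, 9.32-fold higher (3.22 ± 0.214, adjusted p = 1.7e-08). All values of E17.5 and EPDCs were above all values of E11.5, and these calls were kept under every alternative run. The size of the differences was not kept, with lowest log2 values of 1.06 for E17.5 and 1.16 for EPDCs. EPDCs and E17.5 differed by 0.23 (adjusted p = 0.31), a difference that passed the test only without the E12.5 library.

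Other *Klf2* regions were highest at E17.5. The region 15.2 kb upstream ranked 71.0, 65.8 and 55.5 at E11.5, 85.6, 87.4 and 85.4 at E17.5 and 50.03, 72.2 and 75.3 in EPDCs, with 1.70 ± 0.16 (adjusted p = 1.26e-11) between the stages and -1.37 ± 0.195 (adjusted p = 2.65e-05) for EPDCs against E17.5. The region 47.1 kb upstream was found at E17.5 only, at 79.0, 85.2 and 79.8. A neighbour 46.5 kb upstream was called in both epicardial stages, with 60.8, 70.3 and 71.1 for E11.5 followed by 41.4, 65.1 and 53.7 for E17.5, but in no EPDC library. Downstream, a region in an intron of *Eps15l1*, 35.2 kb from the start of *Klf2*, had 27.7, 13.8 and 21.3 fragments in EPDCs against 79.3, 112 and 106 at E17.5 (-2.29 ± 0.262, adjusted p = 3.35e-06).

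*Klf6* (chr13:5861482-5870394, plus strand) encodes a factor induced by tissue injury. Its promoter did not pass limma's test in any comparison with quantile normalization, but distal regions did. The region 31.4 kb downstream, with a TEAD match and a pair of AP-1 matches in the sequence above, ranked 84.9, 92.5 and 92.9 at E11.5, 83.9, 90.8 and 89.8 at E17.5 and 54.9, 25.5 and 53.2 in EPDCs. Its fragments numbered 50.8, 25.1 and 30.9 in EPDCs against 139, 164 and 165 at E17.5, a fall in all 3 libraries (-2.20 ± 0.233, adjusted p = 1.75e-06). Against E11.5 the difference was -1.85 ± 0.227 (adjusted p = 2.79e-06). Between the epicardial stages it was 0.10 (adjusted p = 0.558).

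The region 19.9 kb upstream of *Klf6* was found at E17.5 only, at 68.9, 81.0 and 67.3, and the region 25.5 kb downstream was called at E17.5 (67.0, 83.7 and 81.9) and in 1 E11.5 library (31.0), but in no EPDC library. The strongest distal region, 24.0 kb upstream, ranked from 85.1 to 94.3 in all libraries, and was higher in EPDCs than at E17.5 by 0.45 ± 0.129 (adjusted p = 0.00787; adjusted p above 0.05 without E17.5 replicate 3). The region 15.7 kb upstream was called in all EPDC libraries and no E11.5 library, but the peaks of all 3 E11.5 libraries reached into it.

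*Klf4* (chr4:55527143-55532466, minus strand) encodes a factor of epithelial barriers and of pluripotency. Its strongest distal region, downstream of the gene at chr4:55514738-55515238, ranked from 93.4 to 97.6 in all 9 libraries and passed the test in no comparison with quantile normalization, but with median scaling it was higher at E17.5 than at E11.5 by 0.44 (adjusted p = 0.000531). The region 9.0 kb upstream ranked 79.4, 76.1 and 80.1 in EPDCs, above 68.7, 63.7 and 50.6 at E11.5, and was higher by 0.98 ± 0.201 (adjusted p = 0.000491). The region 46.6 kb upstream was called in all epicardial libraries, from 59.5 to 76.9, and in no EPDC library.

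A region inside *Klf4*, 2.0 kb from its start and in an exon, ranked 69.5, 78.3 and 84.4 at E11.5 and 79.5, 73.1 and 75.4 in EPDCs, but 0, 16.9 and 17.8 at E17.5. It was not tested against E17.5, where 1 library had no call.

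*Klf5* (chr14:99298691-99315036, plus strand), which drives proliferation in epithelium and smooth muscle, had few regions. The region 2.9 kb upstream ranked 81.0, 83.4 and 83.7 at E11.5, above 54.5, 73.3 and 65.2 at E17.5 and 68.4, 53.2 and 59.1 in EPDCs, and was lower in EPDCs than at E11.5 (-0.74 ± 0.149, adjusted p = 0.000415). That difference was -0.42 (adjusted p = 0.103) on the deposited fold enrichment. A weak intronic region 1.2 kb downstream was found in EPDCs only, at 14.2, 47.3 and 47.4.

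*Klf7* (chr1:64029447-64122282, minus strand), known from neurons, had the highest promoter mean of the family but among its 4 regions tested between the stages limma called 0 in either direction, at an unadjusted p under 0.05 as well, where 26.3% and 25.5% of all regions were called. Median scaling, or leaving out E17.5 replicate 2, called 1 higher. Without E17.5 replicate 1, or with regions called in at least 2 libraries of each group, 2 of 6 were lower. Its strongest distal region, in an intron 33.9 kb downstream, ranked from 79.4 to 87.5 in all libraries and passed no test. An intronic region 69.7 kb downstream was called in EPDCs only, at 50.03, 50.3 and 55.4. Another, 61.4 kb downstream, was called at E11.5 (48.3, 54.9 and 67.2) and in EPDCs (41.1, 27.6 and 50.6) but in no E17.5 library.

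**Figure D3:**
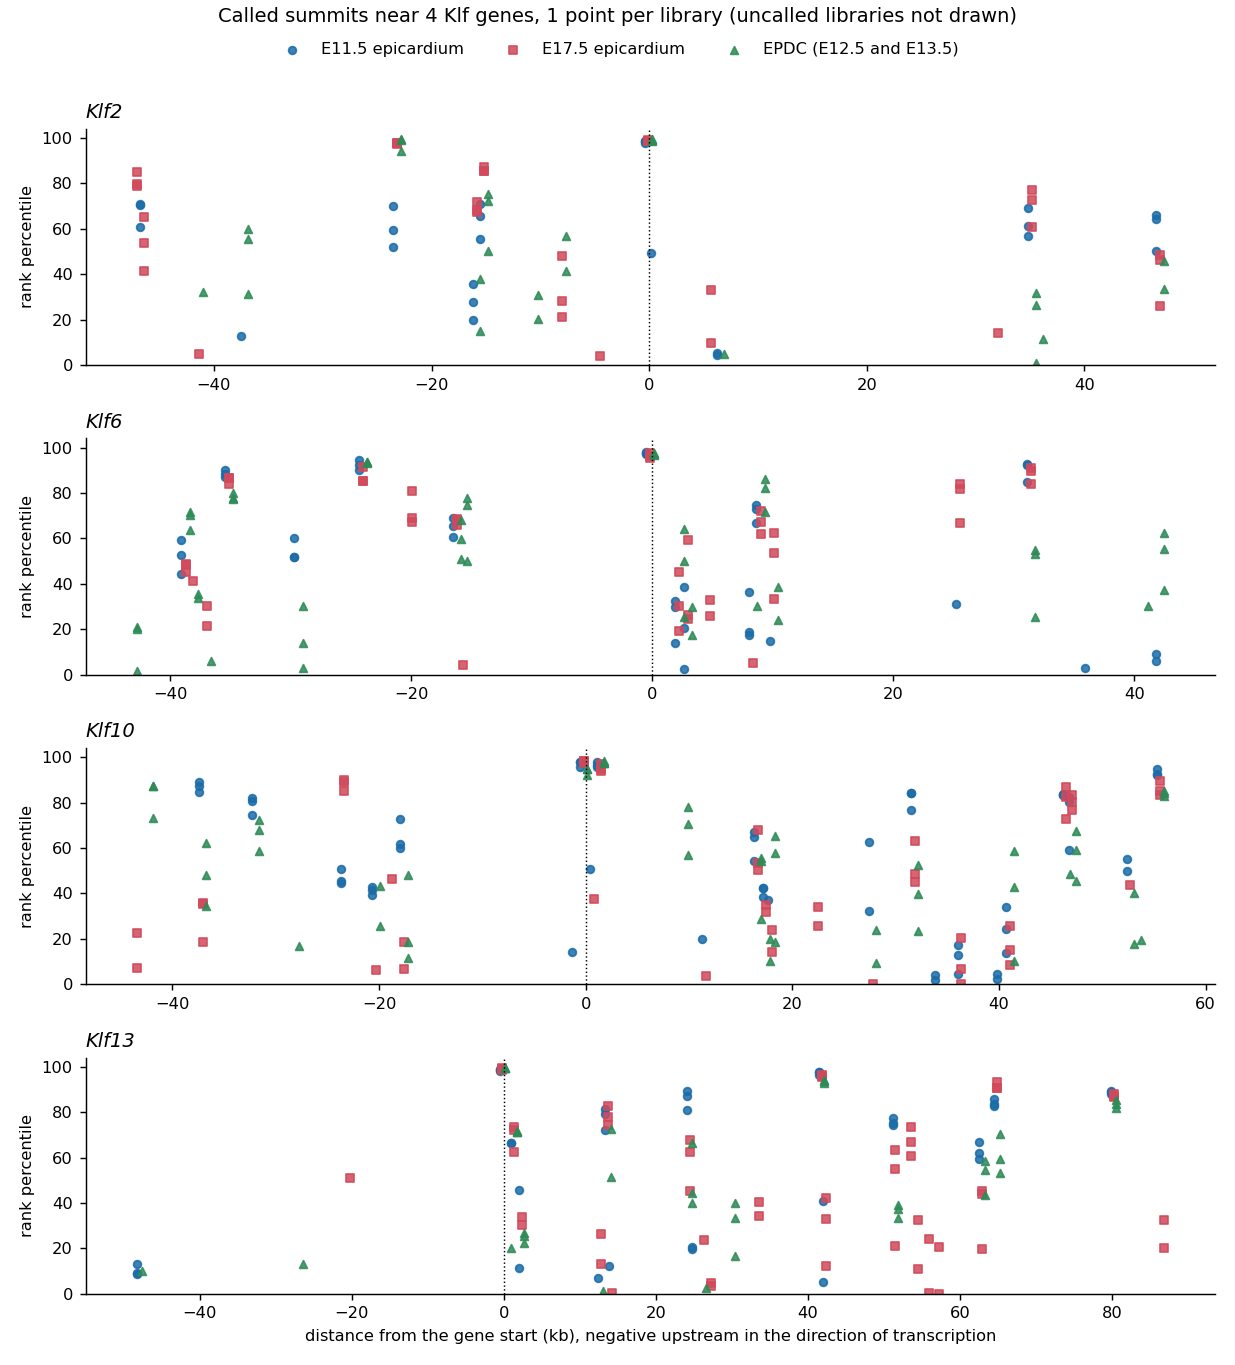
Rank percentile (y axis) of every region around *Klf2*, *Klf6*, *Klf10* and *Klf13* by its distance from the 5′ end of the gene in kb (x axis, negative upstream), with a point for each library that called it, coloured by group, and none where it was uncalled. At 23.2 kb upstream of *Klf2* the E11.5 points are the low ones, and at 23.4 kb upstream of *Klf10* no EPDC point is drawn.

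*Klf3* and *Klf12* encode repressors that bind CtBP. Between E17.5 and E11.5, 9 of their 21 tested regions were higher and 6 lower (26.3% and 25.5% of all regions), or 6 and 2 on the deposited fold enrichment. Against E11.5, EPDCs had 8 higher and 5 lower of 22 (21.6% and 22.3% of all), or 5 and 4 on that scale. Against E17.5 they had 7 higher and 3 lower of 17 (27.2% and 29.1% of all), a count that became 2 and 4 on the deposited fold enrichment. It also fell to 4 higher without E17.5 replicate 1 or EPDC E13.5 sample 1, and became 8 higher and 6 lower without the E12.5 library.

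*Klf3* (chr5:64803388-64832901, plus strand) is known for restraining fat and blood cell programmes. Around it, separate regions were strongest at E17.5 and in EPDCs. The intronic region 8.3 kb downstream had 217, 230 and 211 fragments at E17.5 against 84.0, 61.5 and 40.9 at E11.5, 3.68-fold higher (1.88 ± 0.164, adjusted p = 2.42e-11). In EPDCs it ranked 24.97, 15.2 and 0, below every epicardial library. The region 36.9 kb downstream, past the end of the gene, ranked 83.4, 81.9 and 87.7 in EPDCs, whereas at E11.5 it ranked 16.2, 39.9 and 15.99 and at E17.5 it ranked 14.7, 4.87 and 0. Its fragments numbered 145, 132 and 143 in EPDCs and 20.2, 27.2 and 18.9 at E11.5 (2.68 ± 0.2, adjusted p = 3.81e-09).

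The region 13.7 kb downstream, in an exon of *Klf3*, was also highest in EPDCs, with 147, 251 and 189 fragments in EPDCs against 42.4, 43.0 and 41.1 at E11.5, 4.53-fold higher (2.18 ± 0.186, adjusted p = 1.8e-08). Against E17.5 it was higher by 1.78 ± 0.2 (adjusted p = 2.98e-06). The region 63.9 kb downstream went the other way, at 76.6, 75.6 and 75.8 in EPDCs and from 90.1 to 94.98 in epicardium (-1.19 ± 0.134 against E17.5, adjusted p = 2.78e-06). The strongest distal region, 74.8 kb downstream and nearer to *Tlr1*, ranked higher in EPDCs than at E17.5 (1.11, adjusted p = 6.75e-06), but on the deposited fold enrichment the difference was 0.34 (adjusted p = 0.2).

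*Klf12* (chr14:99870632-100284679, minus strand), first known as a repressor of the AP-2α gene, is the longest of these genes, and 32 of its 42 regions lay inside it. Regions in its window moved in both directions between the stages, and of 11 tested, the promoter among them, 6 were called higher and 3 lower (26.3% and 25.5% of all regions), or 4 and 2 on the deposited fold enrichment. The region 271.0 kb downstream fell from 63.6, 79.1 and 102 fragments at E11.5 to 12.7, 18.8 and 19.8 at E17.5 (-2.25 ± 0.214, adjusted p = 1.34e-11), and was lower in EPDCs too (-1.70 ± 0.23, adjusted p = 5.22e-06). None of the 5 motifs marked in capitals lay in its central sequence. The region 341.3 kb downstream ranked 87.2, 85.7 and 83.9 at E11.5 and 89.3, 87.9 and 91.9 in EPDCs, but 49.2, 39.5 and 57.1 at E17.5. In EPDCs it had 205, 176 and 195 fragments against 50.1, 33.0 and 53.0 at E17.5 (2.11 ± 0.192, adjusted p = 3.43e-07).

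The region 257.8 kb downstream of the *Klf12* start rose from 11.7, 13.8 and 19.8 fragments at E11.5 to 61.5, 43.8 and 52.4 at E17.5, 3.53-fold (1.82 ± 0.228, adjusted p = 1.14e-08). Of the 33 *Klf12* regions called at either stage, 7 were found at E11.5 and not at E17.5, where 12.0% of all regions were. The strongest of these at E11.5, 174.8 kb downstream, ranked 64.8, 64.8 and 61.0 there and 21.3, 0 and 0 in EPDCs. Another, 172.8 kb downstream, ranked 24.5, 40.5 and 35.2 at E11.5 and 57.01, 62.6 and 58.5 in EPDCs, higher by 0.93 ± 0.222 (adjusted p = 0.00187).

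*Klf10* and *Klf13* encode proteins known to bind Sin3a. Between the epicardial stages 4 of their 19 regions were higher and 4 lower (26.3% and 25.5% of all regions), or 10 and 3 with median scaling and 2 and 5 on the deposited fold enrichment. In EPDCs, 11 of 17 were lower and 0 higher than at E11.5 by limma, and 10 of 16 were lower and 0 higher than at E17.5. Of all regions 22.3% were lower and 21.6% higher in the first comparison, and 29.1% and 27.2% in the second. At an unadjusted p under 0.05 these counts were 12 and 0, and 10 and 0. The median differences were -0.518 and -0.532. With median scaling the counts were 2 higher and 10 lower, and 0 and 9. On the deposited fold enrichment they were 1 higher and 5 lower, and 2 and 1, so that the second difference in counts was absent on that scale. Without E17.5 replicate 2 or EPDC E13.5 sample 2, 6 were lower than at E17.5. This grouping was chosen with the values known and has no test of its own.

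*Klf10* (chr15:38291463-38300706, minus strand) is an early response gene of transforming growth factor β. Its upstream side held regions with distinct patterns over the 3 groups. The region 23.4 kb upstream, with a pair of TEAD matches and an AP-1 match in the sequence above, ranked 44.4, 50.8 and 45.2 at E11.5, 85.0, 90.0 and 89.1 at E17.5 and 0 in every EPDC library. Its fragments numbered 137, 150 and 151 at E17.5 against 34.7, 32.4 and 30.0 at E11.5 (2.17 ± 0.155, adjusted p = 7.89e-15). The region 42.3 kb upstream was found in EPDCs only, at 73.4, 87.3 and 87.5, and held a TEAD match as well.

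Between them, the region 37.1 kb upstream of *Klf10* ranked 87.1, 89.1 and 84.6 at E11.5. Its fragments fell to 21.6, 23.8 and 27.1 at E17.5 from values of 102 to 118 at E11.5 (-2.21 ± 0.175, adjusted p = 1.19e-13). In EPDCs the difference from E11.5 was -1.5 ± 0.208 (adjusted p = 7.74e-06). The region 32.0 kb upstream was called at E11.5 (74.6, 81.8 and 80.8) and in EPDCs (72.4, 58.9 and 67.9) but in no E17.5 library. At the 3′ side, 31.9 kb downstream, accessibility was lower at E17.5 (-1.06) and in EPDCs (-1.75, adjusted p = 5.03e-06) than at E11.5. A region just past the end of the gene, 9.6 kb downstream, was found in EPDCs only, at 57.01, 70.7 and 78.1. The intronic region 1.5 kb downstream, near an alternative start, ranked from 93.9 to 98.1 and passed no test with quantile normalization. With median scaling it was higher than at E11.5 by 0.30 at E17.5 (adjusted p = 0.0325) and by 0.45 in EPDCs (adjusted p = 0.00674).

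*Klf13* (chr7:63886351-63938915, minus strand) is known for a role in T cells and in heart development. Its promoter ranked from 98.3 to 99.5, whereas 5 of 7 regions were lower in EPDCs than at E11.5 (22.3% of all regions) and 6 of 8 lower than at E17.5 (29.1% of all). The 6 became 3 without E17.5 replicate 2 or EPDC E13.5 sample 2. The deposited fold enrichment gave 1 higher and 2 lower than at E11.5, and 2 higher and 1 lower than at E17.5. The region 64.9 kb downstream, past the end of the gene and nearer to *E030018B13Rik*, had 50.8, 52.6 and 58.3 fragments in EPDCs against 236, 245 and 219 at E17.5 (-2.12 ± 0.147, adjusted p = 3.48e-08), and held a TEAD match. Under the alternatives this difference ran from -2.19 to -0.80. The region was also higher at E17.5 than at E11.5, by 0.76 ± 0.119 (adjusted p = 1.07e-06). The intronic region 24.5 kb downstream was highest at E11.5, at 80.9, 89.2 and 87.3. It was lower at E17.5 (62.4, 67.9 and 45.4, -0.90 ± 0.152, adjusted p = 3.77e-06) and in EPDCs (66.4, 39.8 and 44.4, -1.61 ± 0.25, adjusted p = 7.13e-05).

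The region 53.6 kb downstream of the *Klf13* start was found at E17.5 only, at 66.7, 73.3 and 60.7. The strongest distal region of *Klf13*, 41.8 kb downstream in an intron, ranked 94.0, 93.0 and 93.9 in EPDCs and from 95.4 to 97.8 in epicardium. Its fragments were lower in EPDCs than at E17.5 (-0.50 ± 0.098, adjusted p = 0.000487), but on the deposited fold enrichment the sign turned, to 0.32 (adjusted p = 0.00984).

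*Klf15* (chr6:90462576-90475238, plus strand), a glucocorticoid-induced regulator of metabolism that restrains cardiac hypertrophy, had regions in all directions, 4 higher and 3 lower of 12 between the stages (26.3% and 25.5% of all regions), 4 and 3 of 11 in EPDCs against E11.5 (21.6% and 22.3%), and 5 and 5 of 11 against E17.5 (27.2% and 29.1%). On the deposited fold enrichment these were 2 and 1, 2 and 2, and 2 and 3. Against E11.5, EPDCs had 2 higher and 2 lower without E11.5 replicate 3, and 3 and 1 without E11.5 replicate 1 or 2 or EPDC E13.5 sample 1. Against E17.5 the 5 higher became 3 with median scaling or without E17.5 replicate 2 or 3 or the E12.5 library. The region 8.8 kb downstream, in an intron of *Klf15*, had 79.3, 70.6 and 78.8 fragments in EPDCs against 21.2, 22.5 and 18.9 at E11.5 (1.87 ± 0.209, adjusted p = 5.2e-07), and was also higher than at E17.5 (1.59 ± 0.214, adjusted p = 1.52e-05). The region 1.1 kb downstream ranked 93.8, 93.5 and 94.8 in EPDCs, above all epicardial values of 78.9 to 88.4, and was higher than at E11.5 by 1.08 ± 0.113 (adjusted p = 2.16e-07).

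Farther downstream of *Klf15*, some regions in introns of *Aldh1l1*, the neighbouring gene of a folate enzyme, were strongest at E17.5. The region at 44.4 kb ranked 61.3, 66.3 and 68.2 there, 0, 16.03 and 0 at E11.5 and 1.84, 7.87 and 28.0 in EPDCs. Its fragments in EPDCs numbered 17.4, 19.1 and 22.7 against 116, 113 and 122 at E17.5 (-2.58 ± 0.202, adjusted p = 9.27e-08). Under the alternatives this difference ran from -2.68 to -0.76. The region at 46.7 kb rose from 64.7, 63.3 and 47.9 fragments at E11.5 to 162, 179 and 153 at E17.5 (1.501 ± 0.143, adjusted p = 1.43e-11). That rise was 0.5 to 1.6 under the alternatives. At 33.2 kb the order differed, with 52.3, 65.8 and 55.2 at E17.5 below the other groups (-1.05 ± 0.183 against E11.5, adjusted p = 7e-06), a call not kept on the deposited fold enrichment (-0.18, adjusted p = 0.378).

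**Figure D4:**
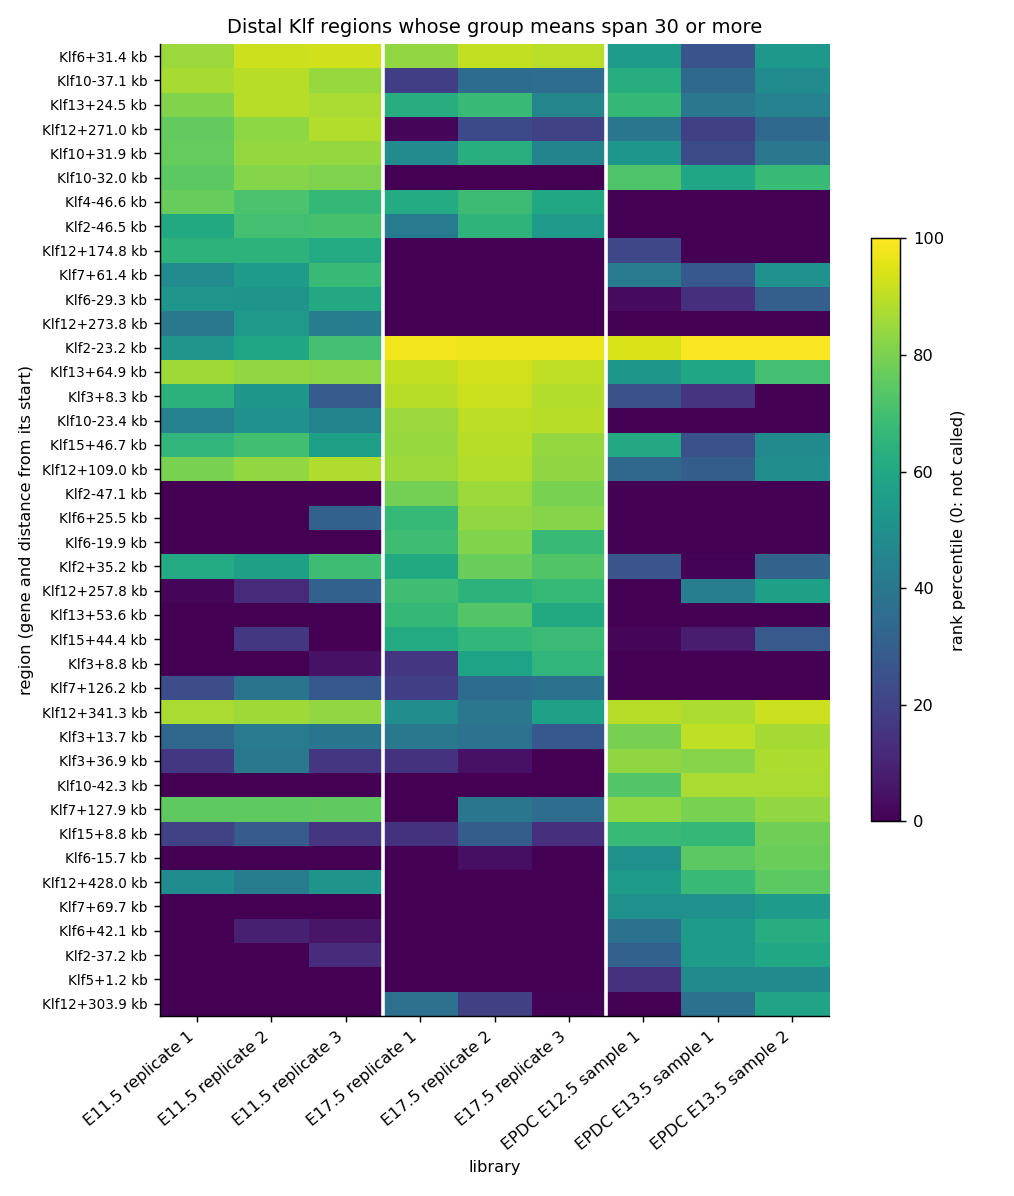
Rank percentile (colour, from 0 to 100) of the 40 distal regions named by the rule whose group means span at least 30 percentiles (rows) in each of the 9 libraries (columns). The rows were chosen for this spread, with the highest mean at E11.5 in 12, at E17.5 in 15 and in EPDCs in 13.

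Sequence motifs were searched in all 501 bases of each region, on both strands. A CACCC box was found in 120 of the 224 regions (53.6%, against 46.9% of all regions) and a GC box in 19.6%, against 19.8%. TEAD motifs lay in 35.3% (against 33.1%), AP-1 motifs in 47 of the 224 (against 22.8% of all) and GATA motifs in 27.2% (against 29.8%). An E-box (CANNTG) was found in 92.0%, against 92.1%, and an NFI motif (TTGGC) in 66.1%, against 65.6%. The median GC content was 48.4%, against 48.3%. These matches are letters in the sequence and say nothing of which factor was bound.

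Other genes of the family and its partners were described from lists of genes. Of the other Krüppel-like factor genes, *Klf1*, the erythroid factor, and *Klf17* had no promoter region called in any library. The promoter of *Klf8* was lower at E17.5 than at E11.5 (-0.73, adjusted p = 0.00289), and that of *Klf9* was higher (0.25, adjusted p = 0.0196). In EPDCs those of *Klf14* (-0.82, adjusted p = 0.00104) and *Klf9* (-0.35, adjusted p = 0.00212) were lower than at E17.5. That of *Klf11* was higher in EPDCs than at E11.5 (0.287, adjusted p = 0.00825) and than at E17.5 (0.289, adjusted p = 0.00337). In the windows of these other Krüppel-like factor genes 14 regions were higher and 5 lower of 42 between the stages, 7 and 9 of 41 in EPDCs against E11.5, and 5 and 17 of 36 against E17.5. The shares of all regions called higher and lower were 26.3% and 25.5%, 21.6% and 22.3%, and 27.2% and 29.1% in these comparisons, and they apply to the next lists too. The related Sp genes had 23 and 17 of 76, 11 and 18 of 82, and 12 and 21 of 67. Their *Sp6* promoter was found in EPDCs only, at 51.3, 71.4 and 73.8, and *Sp2* was uncalled. The promoters of all 8 partner genes, which encode cofactors of these proteins, were called in every library, and that of *Hdac2*, a deacetylase of the Sin3 complex, was higher in EPDCs than at E11.5 (0.66, adjusted p = 2.51e-05). Their windows had 18 and 7 of 60, 11 and 5 of 56, and 10 and 12 of 51.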

How the data were processed

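Bulk ATAC-seq of 10 samples was deposited as 9 peak lists, 3 for each of E11.5 epicardium, E17.5 epicardium and EPDCs. The authors aligned reads to mm10, removed mitochondrial, blacklisted, duplicate and multi-mapped reads, and called peaks with summits in each list by MACS2 (version 2.2.9.1) at a q-value of 0.01, as named in the submitters' processing notes and the study's methods. The deposited values are, for each summit, the fold enrichment (a ratio) over a local background, the −log10 p-value and the −log10 q-value. Total depth was not used here. The fragments at each summit were recovered from the fold enrichment and −log10 p, and 100.0% came out whole in every library, that is, a whole number gave the deposited −log10 p to within 0.002 plus 0.0001 times its value. They need no background, whereas fold enrichment and p depend on it.

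Summits on the numbered and sex chromosomes were widened to 501 bases and merged by iterative removal over the 9 lists, which kept 184764 regions that held 92.92% of summits. Genes came from GENCODE M21 (GRCm38.p6, the mm10 assembly). Groups were compared with limma (version 3.58.1, R 4.3.3; trend and robust variance) on log2 fragments after quantile normalization, over regions called in all 6 libraries, with Benjamini-Hochberg adjustment over all of them, and checked on simulated data. Other steps used Python 3.11.15 with numpy 2.4.6, pandas 2.3.3, scipy 1.17.1 and matplotlib 3.10.9.

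Regions named in the text were, for each gene, the strongest promoter and distal region, and in each comparison the region with the largest called change in each direction and the strongest region found in 1 group only. Regions 15.2 kb upstream of *Klf2*, 2.0 kb downstream of *Klf4*, 9.6 kb downstream of *Klf10*, 172.8 kb downstream of *Klf12* and 1.1 kb downstream of *Klf15*, and lists of further regions, were added after their values were seen. The genes and lists, and the cofactor classes, were chosen with earlier results of these data known. Samples were separate sorts of pooled hearts, and p-values measure the spread between them. Alternatives were median scaling, the deposited fold enrichment, regions called in at least 2 libraries of each group, a −log10 q of at least 5, equal numbers of summits, a 10 kb window, every annotated start, and leaving out each library. Replicate numbers of the epicardial stages did not pair the libraries (correlations of -0.0793 to 0.0471).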

Additional observations from a re-analysis of the deposited data

How the results depend on the processing

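Of 129 alternative counts, 103 stayed within 1.5 times the reported one. Of the called differences of single named regions, 82 of 82 were still called at a −log10 q of at least 5, 85 of 88 with regions called in 2 libraries, 76 of 88 with median scaling, 43 of 88 on the deposited fold enrichment and 465 of 528 when a library was left out. With the replicate number as a block the counts between E17.5 and E11.5 were again 28 higher and 14 lower, and 28 of 28 named values were still called. The block could not be fitted in EPDC comparisons, whose libraries repeat a number. On the deposited fold enrichment 13 regions were higher at E17.5 than at E11.5 (28 reported), 14 lower in EPDCs than at E11.5 (24) and 11 lower in EPDCs than at E17.5 (25).

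Within 10 kb of the genes the called counts were 15 higher and 7 lower between the stages, 12 and 9 for EPDCs against E11.5, and 9 and 9 against E17.5. The counts found in a single group were 3 (E17.5, not E11.5), 8 (E11.5, not E17.5), 2 (E11.5, not EPDCs), 10 (EPDCs, not E17.5) and 4 (E17.5, not EPDCs), because fewer regions were counted. With equal numbers of summits 9 regions, not 5, were found at E17.5 and not E11.5, and every annotated start gave 31 promoter regions, not 17.

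Leaving out 1 library gave 9 to 16 regions higher in EPDCs than at E17.5, 6 to 15 found at E17.5 and not E11.5, 9 to 24 in EPDCs and not E11.5, 7 to 12 at E11.5 and not in EPDCs, 17 to 30 in EPDCs and not E17.5, and 12 to 21 at E17.5 and not in EPDCs. The upper ends came without the E12.5 library or E17.5 replicate 1, except for 12, without E11.5 replicate 1. The counts in 1 group rise by construction, since fewer libraries must hold the region.

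Signs are given as turned where at least 1 of the 2 values was called, and turns between uncalled values, such as the *Klf5* promoter in EPDCs minus E11.5 (-0.094, and 0.334 under median scaling), are left out. They turned under median scaling for E17.5 minus E11.5 at the promoters of *Klf3* (0.201) and *Klf7* (0.365), 1.5 kb downstream of *Klf10* (0.299) and 41.8 kb downstream of *Klf13* (0.374), and for EPDCs minus E11.5 at the promoters of *Klf3* (0.434) and *Klf10* (0.012) and 1.5 kb downstream of *Klf10* (0.45). On the deposited fold enrichment they turned for E17.5 minus E11.5 at the promoters of *Klf2* (-0.165) and *Klf3* (0.011), 46.5 kb upstream of *Klf2* (-0.675), 13.7 kb downstream of *Klf3* (-0.089), 16.2 kb (-0.218) and 38.7 kb (-0.191) upstream of *Klf6* and 45.8 kb downstream of *Klf15* (-0.922). For EPDCs minus E11.5 they turned at the promoters of *Klf10* (0.066) and *Klf15* (-0.032), 47.1 kb downstream of *Klf10* (0.067) and 41.8 kb downstream of *Klf13* (0.116). For EPDCs minus E17.5 they turned at the promoters of *Klf2* (0.391) and *Klf5* (0.085), 2.9 kb upstream of *Klf5* (0.11), 24.5 kb (0.037) and 41.8 kb (0.319) downstream of *Klf13* and 45.8 kb downstream of *Klf15* (0.315). Why the scales differ was not tested.

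Peak lists hold only called regions, so weak accessibility is not seen, and the number of summits per library (94909 to 142743) limits calls in the shallower lists.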
